A study of Mus musculus with 6 samples.

Results

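The Ly49 receptors are lectin-like proteins on the surface of mouse natural killer (NK) cells, encoded by the Klra genes. The 10 protein-coding genes described here, Klra1, Klra3 to Klra10 and Klra17, were taken by symbol and all had a row among the 37991 Ensembl genes counted. RNA sequencing had been done on splenic NK cells sorted for CD27 and CD11b, surface proteins that together mark an intermediate maturation stage, from mice of the C57BL6 background. There were 3 wildtype and 3 Rroid-deficient libraries. The noncoding RNA Rroid is transcribed at a cis-regulatory element in the neighbourhood of Id2. The labels give neither the age of the mice nor how the locus was altered. Nor do they tie each library to a mouse of its own, and the p-values below therefore rest on library-to-library spread that could be technical. The question put to these data was how the Ly49 genes, activating and inhibitory, differed between the genotypes.

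Inhibitory Ly49 receptors bind MHC class I molecules on other cells and carry a tyrosine-based inhibitory motif in their cytoplasmic tail, which recruits phosphatases such as SHP-1. Activating Ly49 receptors lack that motif and signal through the adaptor DAP12, encoded by Tyrobp. Each NK cell expresses only some of the Ly49 genes, so that the level in a bulk sample depends both on the fraction of cells with a receptor and on the RNA per cell, which cannot be told apart here. Of the members, Klra4 (Ly49D) and Klra8 (Ly49H, the receptor for a mouse cytomegalovirus protein) are activating and the other 8 are inhibitory.

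The start of the coding sequence shows what separates the classes, and the first 45 coding bases of each member are given below from the GENCODE M21 transcripts (build GRCm38), 5′ to 3′. Capitals mark codon 8, the codon at the tyrosine of the inhibitory motif.
Klra4 (Ly49D): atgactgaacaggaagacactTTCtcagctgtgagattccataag
Klra8 (Ly49H): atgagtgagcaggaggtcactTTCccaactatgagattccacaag
Klra1 (Ly49A): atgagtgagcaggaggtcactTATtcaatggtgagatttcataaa
Klra3 (Ly49C): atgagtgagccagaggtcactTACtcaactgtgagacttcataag
Klra5 (Ly49E): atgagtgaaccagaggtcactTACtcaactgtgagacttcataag
Klra6 (Ly49F): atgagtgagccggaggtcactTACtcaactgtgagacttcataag
Klra7 (Ly49G2): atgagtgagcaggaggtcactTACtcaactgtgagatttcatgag
Klra9 (Ly49I): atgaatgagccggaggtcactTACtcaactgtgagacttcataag
Klra10 (Ly49J): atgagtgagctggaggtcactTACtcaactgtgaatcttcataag
Klra17 (Ly49Q): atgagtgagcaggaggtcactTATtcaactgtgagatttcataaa
All 8 inhibitory members carried a tyrosine codon there, TAC in 6 and TAT in Klra1 and Klra17. Klra4 and Klra8 both carried TTC, a phenylalanine codon. Counted from 1 at the A of the start codon and with Klra3 as the reference, A23T was found in Klra4 and Klra8 and in none of the other members. In all, the other members differed from Klra3 at 1 (Klra5 and Klra6) to 10 (Klra4) of these 45 bases.

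Over the whole coding sequence the activating members did not resemble each other most. Klra4 and Klra8 were identical at 78.6% of aligned coding bases. Klra4 was closer to the inhibitory Klra1 (88.3%), which encodes Ly49A, and Klra8 to the inhibitory Klra9 (91.9%), which encodes Ly49I. The closest pair of members was Klra9 and Klra10, at 96.9%, and Klra3 was identical to Klra10 at 96.2% and to Klra9 at 95.9%. Klra5 and Klra6 were identical at 91.9%.

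**Figure D1:**
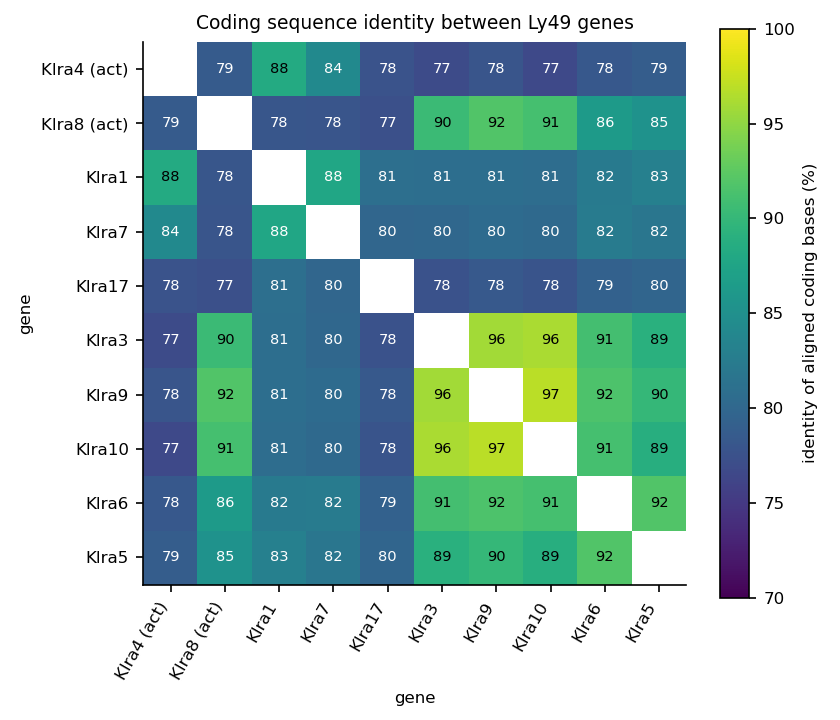
Percent identity of aligned coding bases for each pair of the 10 Ly49 genes, 1 transcript a gene; both axes list the genes and (act) marks the activating ones. The block of Klra3, Klra9 and Klra10 stands between 95.9% and 96.9%, while Klra4 and Klra8 share 78.6%.

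Paralogs this close can share sequencing reads. Reads were 100 bases long, and the files list reads that aligned to several places apart from the genes. Of the 100-base windows in the annotated transcripts, Klra1, Klra4, Klra5, Klra6 and Klra17 had none that also occurred in a transcript of another gene. The shared part was 1.78% of windows for Klra3, 1.83% for Klra7, 4.07% for Klra9 and 5.25% for Klra10. It was largest for Klra8, at 14.4%, nearly all of it shared with the pseudogene Klra14-ps (13.7% of the windows of Klra8). Exact matches over whole transcripts do not cover reads with mismatches, and with 50-base windows the shared part rose to 39.8% for Klra10, 33.1% for Klra8 and 31.5% for Klra9. By this measure the division of reads is uncertain for these 3 genes in particular.

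Levels are given as CPM, which puts the reads of all libraries on one scale (TMM factors applied), with mean ± SD over n = 3 libraries per genotype. The libraries held 5823626 to 9216430 reads assigned to genes, of which the 10 members took 7389 to 13413. Per kilobase of exon, the order in wildtype was Klra4 (406 ± 103 CPM per kb), Klra8 (257 ± 31.9), Klra7 (203 ± 43.6), Klra9 (123 ± 12.7), Klra6 (48.5 ± 15.5), Klra3 (36.1 ± 4.35), Klra1 (29.4 ± 6.50), Klra10 (23.7 ± 11.5), Klra5 (3.74 ± 3.66) and Klra17 (0.328 ± 0.365). The wildtype libraries of neighbours in this order overlapped, except between Klra7 and Klra9, Klra9 and Klra6, and Klra10 and Klra5. The exons of Klra10 cover 823 bases, of which 798 are coding, so that little untranslated sequence was annotated for it.

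None of the members passed the test between genotypes. The test, edgeR's quasi-likelihood fit with Benjamini-Hochberg adjustment at 0.05, covered 11724 genes, of which 0.0171% passed, and 9 of the 10 members, all but Klra17. At an unadjusted p under 0.05 there were 2 members, Klra6 and Klra9, where 5.29% of all genes tested had such a p. DESeq2 on the same genes passed 0 members (0.569% of all genes) and limma-voom 0 (0.00853%), and each gave Klra6 and Klra9 an unadjusted p under 0.05, against 7.53% and 5.41% of all genes. These unadjusted p-values depended on single libraries. Without wildtype 2 or without deficient 3 no member was under 0.05 in the edgeR fit, and without wildtype 3 or without deficient 2 Klra9 alone was. The log2 fold change was positive for 6 and negative for 3 of the 9, with a median of 0.24, beside a median of 0.02 over all genes tested. The libraries of the genotypes did not overlap for 3 of the 9 members, beside 12.4% of all genes tested. In Klra6 and Klra8 all deficient libraries were higher (6.03% of all genes), and in Klra9 all were lower (6.33% of all genes).

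**Figure D2:**
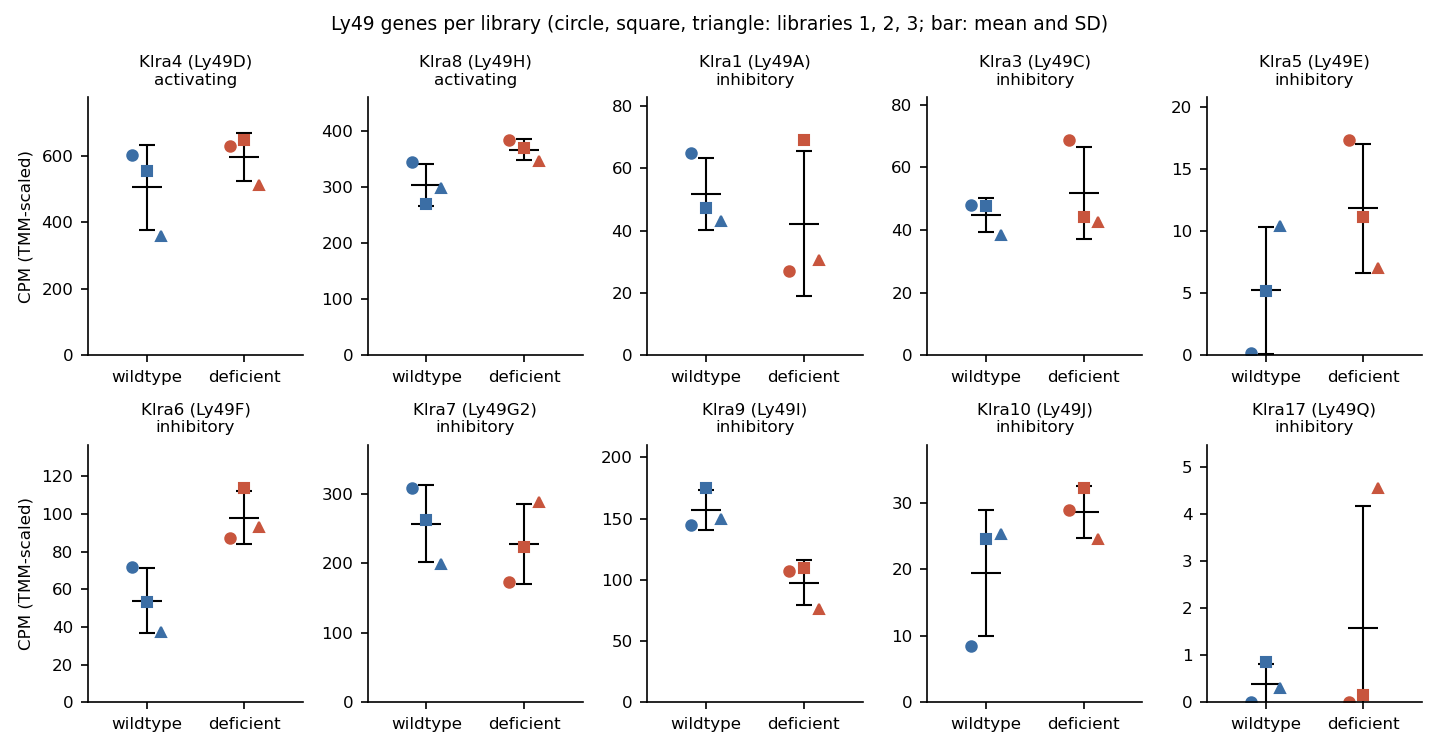
CPM of each Ly49 gene in each library, a panel a gene with its own axis from 0; points are libraries and bars are mean and SD for n = 3 per genotype. Klra9 was between 145 and 175 CPM in wildtype and between 76.5 and 109 in deficient libraries, and Klra6 between 37.3 and 71.8 against 87.5 to 114.

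The activating receptor gene Klra4 had 602, 554 and 360.1 CPM in wildtype libraries 1 to 3 and 630.2, 647 and 513 CPM in deficient libraries 1 to 3. The ranges overlapped, and wildtype 3 was the lowest of the 6 libraries. The log2 fold change was 0.24 (SE 0.21, edgeR adjusted p = 0.933). Its 95% interval ran from a fold of 0.848 to 1.64, so that a larger rise lies outside it. Without wildtype 3 the log2 fold change of Klra4 was 0.041. Klra8 had 343, 269 and 298 CPM in wildtype and 383, 369 and 346 CPM in deficient libraries. Every deficient library was above every wildtype library, by a narrow margin between wildtype 1 and deficient 3. The log2 fold change of Klra8 was 0.27 (SE 0.18, edgeR adjusted p = 0.925), with an interval of 0.914 to 1.59 as a fold.

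Among the inhibitory members, Klra9, which encodes the MHC class I receptor Ly49I, had 145, 175 and 150.1 CPM in wildtype and 108, 109 and 76.5 CPM in deficient libraries. Each deficient value was under the lowest wildtype value. The mean was 157 ± 16.3 CPM in wildtype and 97.8 ± 18.5 CPM in the deficient group, a log2 fold change of -0.68 (SE 0.25, unadjusted p = 0.0217, edgeR adjusted p = 0.906). The raw counts were 968, 1633 and 954 against 746, 671 and 553. Of the windows of Klra9, 4.07% of those of 100 bases and 31.5% of those of 50 bases were shared with another gene.

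Klra6, which encodes Ly49F, had 71.8, 53.3 and 37.3 CPM in wildtype and 87.5, 114 and 92.9 CPM in deficient libraries. Each deficient value was over the highest wildtype value. The log2 fold change of Klra6 was 0.86 (SE 0.33, unadjusted p = 0.0277, edgeR adjusted p = 0.914), with an interval of 1.08 to 3.04 as a fold before adjustment for the number of genes tested. None of its 100-base windows was shared with another gene.

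Klra7, which encodes Ly49G2 and was the inhibitory member with the highest level per kilobase, had 309, 263 and 199 CPM in wildtype and 173, 224 and 288 CPM in deficient libraries. The ranges covered each other almost fully. Its log2 fold change was -0.17 (SE 0.25, interval 0.602 to 1.31 as a fold). Klra1 had 64.9, 47.4 and 43.3 CPM against 27.1, 69.0 and 30.6 CPM, with deficient 2 the highest and deficient 1 the lowest of all libraries (log2 fold change -0.30, SE 0.45). Klra3, the gene of Ly49C, a receptor for MHC class I, had 47.9, 47.8 and 38.5 CPM against 68.6, 44.0 and 42.5 CPM, where deficient 1 alone stood above the wildtype range (log2 fold change 0.21, SE 0.37). Leaving out both libraries numbered 1 turned the direction of all 3 genes, with log2 fold changes of 0.14 for Klra7, 0.13 for Klra1 and -0.0034 for Klra3. Leaving out deficient 1 alone also turned Klra3, to -0.054.

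The members at low level were the least precise. Klra10, the gene of Ly49J, had 8.54, 24.6 and 25.3 CPM in wildtype and 29.0, 32.3 and 24.6 CPM in deficient libraries, so that wildtype 1 was low and the other 5 libraries were close (log2 fold change 0.55, SE 0.56). Klra5, the gene of Ly49E, a receptor of fetal NK cells, had counts of 1, 48 and 66 in wildtype and 120, 68 and 51 in the deficient group (log2 fold change 1.17, SE 1.15). Without wildtype 1 the log2 fold changes were 0.19 for Klra10 and 0.60 for Klra5. That of Klra5 was 2.13 without wildtype 3 and 2.19 with limma-voom, and 0.22 without both libraries numbered 1. Wildtype 1 and deficient 1 had 5.63% and 5.57% of all tested genes at a count of 0, and the other libraries 0.23% to 2.43%. The part of this in the values of Klra5 and Klra10 was not tested. Klra17, the gene of Ly49Q, known from plasmacytoid dendritic cells, had counts of 0, 8 and 2 in wildtype and 0, 1 and 33 in deficient libraries and was under the filter on low counts. In the libraries at 0 reads, counting error alone allows up to 3, which was 0.322 to 0.489 CPM over the 6 libraries.

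**Figure D3:**
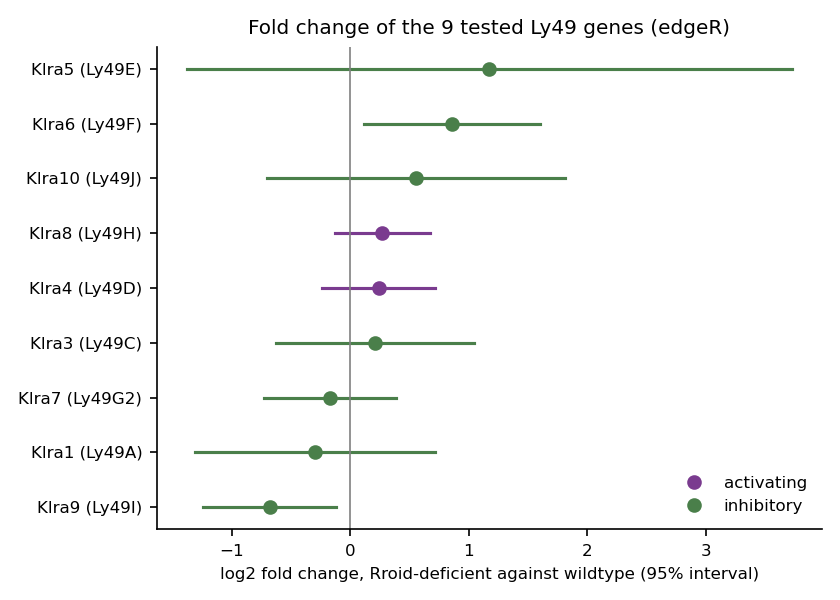
Log2 fold change of the 9 tested Ly49 genes, deficient against wildtype, with 95% intervals from the edgeR fit (not adjusted for the number of genes). The intervals of Klra9 (-0.68) and Klra6 (0.86) leave out 0, the other 7 include it, and the activating genes lie close together at 0.24 and 0.27.

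The classes were compared as summed levels and as shares within a library, where scaling between libraries cancels. The activating pair summed to 945, 823 and 658 CPM in wildtype and 1013, 1017 and 859 CPM in deficient libraries, and these ranges overlapped. The inhibitory members summed to 647, 617 and 504 CPM in wildtype and 510.1, 604 and 567 CPM in deficient libraries, again with overlap. The ratio of the deficient to the wildtype mean was 1.19 for the activating and 0.95 for the inhibitory sum. On the log2 scale the activating ratio was 0.25 with all libraries and 0.12 without wildtype 3. All members together had 1398 ± 218 CPM in wildtype and 1523 ± 97.4 CPM in deficient libraries.

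Activating genes took 59.4% of the Ly49 reads in wildtype 1 (95% Wilson interval 58.4% to 60.3%), 57.1% in wildtype 2 (56.3% to 58.0%) and 56.6% in wildtype 3 (55.5% to 57.7%). They took 66.5% in deficient 1 (95% Wilson interval 65.6% to 67.4%), 62.7% in deficient 2 (61.8% to 63.7%) and 60.3% in deficient 3 (59.3% to 61.2%). Every deficient library had the higher share, although the intervals of deficient 3 and wildtype 1 overlapped. The intervals treat reads as independent and leave out the spread between libraries. Reads of amplified libraries without molecular identifiers are not independent molecules, so the intervals can be too narrow even for counting error. The mean share was 57.7% ± 1.46 in wildtype and 63.2% ± 3.14 in deficient libraries (SD, n = 3), a difference of 5.47 percentage points. It stayed between 3.80 and 6.92 points when any 1 library was left out, and no p is given for this share because it is a score over chosen members. No member was left out in turn. The inhibitory Klra9 alone made up 11.4% of the Ly49 CPM in wildtype and 6.39% in deficient libraries on average. How far the difference in share rests on Klra9 was not tested, so it is not shown to be one between the classes.

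**Figure D4:**
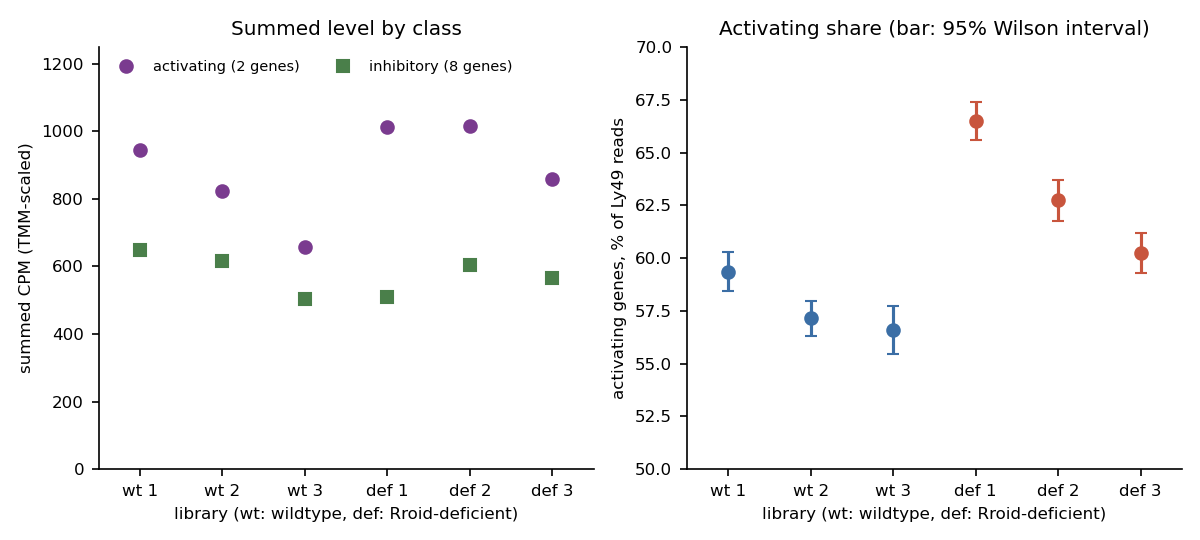
Left, summed CPM of the 2 activating and the 8 inhibitory Ly49 genes in each library; right, the activating genes as a percent of all Ly49 reads, with 95% Wilson intervals and an axis from 50 to 70. The deficient libraries lie at 60.3% to 66.5% and the wildtype libraries at 56.6% to 59.4%.

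Within the summed level, the inhibitory members differed from each other in what they contributed. Klra9 made up 11.4% ± 2.02 of the Ly49 CPM in wildtype and 6.39% ± 0.905 in deficient libraries. Klra6 made up 3.80% ± 0.655 and 6.43% ± 0.650 (SD, n = 3 each). The share of Klra7 was 18.3% ± 1.13 in wildtype and 15.1% ± 4.56 in deficient libraries, where it ranged from 11.4% to 20.2%. Klra4 was at 31.0% to 38.5% in wildtype and 36.0% to 41.4% in deficient libraries. The CPM of Klra4 relative to Klra8 was 1.67 ± 0.432 in wildtype and 1.63 ± 0.136 in deficient libraries.

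The 250 bases before the annotated start of Klra6 and Klra9 are shown because these members differed in opposite directions before adjustment and because Id2, whose protein holds E proteins away from DNA, fell in the deficient libraries. E proteins bind the E box, CANNTG, which reads the same way on both strands, and capitals mark it. The sequences are from RefSeq on build GRCm38.p6, minus strand, chr6:130026955-130027204 and chr6:130193113-130193362.
Klra6: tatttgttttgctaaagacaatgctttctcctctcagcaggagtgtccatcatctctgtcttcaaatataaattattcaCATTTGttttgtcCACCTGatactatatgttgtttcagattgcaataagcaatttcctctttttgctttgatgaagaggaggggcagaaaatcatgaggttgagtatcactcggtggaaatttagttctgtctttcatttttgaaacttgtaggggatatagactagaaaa
Klra9: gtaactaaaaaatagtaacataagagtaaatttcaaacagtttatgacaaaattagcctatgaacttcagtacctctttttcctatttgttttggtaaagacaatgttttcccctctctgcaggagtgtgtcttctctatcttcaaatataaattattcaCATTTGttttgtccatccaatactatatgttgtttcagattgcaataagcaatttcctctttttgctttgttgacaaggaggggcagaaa
Klra6 held 2 E boxes and Klra9 held 1. Klra1 and Klra5 also held 2, as did each window of Klra7 and Klra8, while Klra3, Klra4 and Klra17 held 1. Log2 fold changes of both signs were found among the members with 2 and among those with 1. Whether E boxes bear on the levels was not tested. Of the 10 members 9 had at least 1 in such a window, all but Klra10. By window it was 11 of 12, where 66.2% of 32851 mouse windows of this length had one. The members are paralogs and many of their windows are similar, so these are not independent of each other. The windows of Klra1 and Klra10 are unlike those of Klra6 and Klra9, and that of Klra10 resembles another window of Klra7. Windows before annotated starts are thus not all of the same kind, which limits the comparison of Klra10 with the rest. A match is a description of the letters and not a binding site.

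Among other Klra genes of the annotation, the pseudogene Klra13-ps had 360.1 ± 34.2 CPM in wildtype and 378 ± 6.16 CPM in deficient libraries (log2 fold change 0.07, SE 0.17). Per kilobase of exon it had 346 ± 32.8 CPM in wildtype, where Klra7, the highest of the inhibitory members, had 203 ± 43.6. It shared 1.86% of its 100-base windows, all with Klra7. Klra14-ps had 99.8 ± 7.28 and 90.8 ± 24.4 CPM, and Klra11-ps 2.32 ± 0.757 and 2.09 ± 0.541 CPM. Klra2, which encodes the myeloid receptor Ly49B, had 2 reads in wildtype 2 and none in the other 5 libraries.

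The signalling partners, ligands and regulators of Ly49 receptors were examined in the same fit. Of 14 tested adaptors and activating signalling genes none passed, and their median log2 fold change was -0.08. Tyrobp, the gene of DAP12, had 1602, 970 and 1110.2 CPM in wildtype and 968, 1169 and 1100 CPM in the deficient group (log2 fold change -0.19, SE 0.19). The 2 of smallest p were Pik3r1, a regulatory subunit of PI3 kinase, at 631 ± 64.3 and 488 ± 56.9 CPM, and Lat2, an adaptor, at 62.2 ± 8.56 and 92.5 ± 38.2 CPM. None of 7 inhibitory signalling genes passed, 6 with a positive log2 fold change and a median of 0.26. Ptpn6, which encodes the phosphatase SHP-1, had 73.4, 42.1 and 70.6 CPM in wildtype and 141, 98.7 and 99.3 CPM in the deficient group, without overlap (edgeR log2 fold change 0.86, SE 0.32, adjusted p = 0.906). Inpp5d, the gene of the lipid phosphatase SHIP-1, had 150 ± 33.1 and 206 ± 43.5 CPM.

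None of 7 genes of MHC class I and its loading passed (median log2 fold change 0.03). H2-K1 and H2-D1, which encode class I heavy chains bound by inhibitory Ly49 receptors, had log2 fold changes of -0.0049 (SE 0.12) and -0.06 (SE 0.15). The 2 of smallest p were Nlrc5, a transcriptional activator of class I genes, at 105 ± 10.3 and 194 ± 115 CPM, and the peptide transporter gene Tap1, at 75.2 ± 11.5 and 113 ± 22.6 CPM. Of 12 transcription factors linked to Ly49 expression, 1 fell, Id2, from 468, 338 and 342 CPM in wildtype to 38.9, 66.7 and 81.2 CPM in the deficient group (edgeR log2 fold change -2.62, SE 0.30, adjusted p = 0.0308), and none rose, where 0.0171% of all genes tested passed. The call of Id2 was lost when any 1 library was left out (edgeR adjusted p of 0.0589 to 0.316), without both libraries numbered 1 (0.0791) and with the replicate number as a block (0.309), while its log2 fold change lay between -2.86 and -2.20 in these fits. The call of Id2 held in edgeR with RLE size factors (adjusted p = 0.0307) and with a stricter filter (0.0284). It also held in limma-voom (adjusted p = 0.0382), in edgeR without a filter, and in DESeq2 with and without the filter. The median log2 fold change of the 12 factors was -0.08. Tcf7, which encodes TCF-1, a factor known to act on the Ly49A gene, had 355, 342 and 299 CPM in wildtype and 437, 472 and 442 CPM in deficient ones, without overlap and without passing (edgeR log2 fold change 0.44, SE 0.17, adjusted p = 0.914).

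Other lectin-like receptors of the NK gene complex, the chromosome region that also holds the Klra genes, gave a median log2 fold change of -0.11 over 14 tested genes, none of which passed. Of these 14, 5 had all deficient libraries lower and 2 had all higher, beside 6.33% and 6.03% of all genes tested. The 2 of smallest p were Klrb1b, an inhibitory receptor of the NKR-P1 family, at 130 ± 38.7 and 45.8 ± 9.82 CPM, and Klrg1, an inhibitory receptor of mature NK cells that lies outside the core complex, at 103 ± 36.6 and 41.4 ± 12.0 CPM. Whether these receptors differed from the Ly49 genes in response was not tested.

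Markers of other cells were low beside those of NK cells. Summed NK cell markers were at 12109 to 14619 CPM in wildtype and 10691 to 11150 CPM in deficient libraries, and none of the 11 passed. The NK marker of smallest p was Gzma, the gene of the cytotoxic protease granzyme A, with 5496, 3917 and 4090.1 CPM in wildtype and 2315, 2726 and 2640 CPM in deficient libraries, without overlap (edgeR log2 fold change -0.81, SE 0.15, adjusted p = 0.543). Klrb1c, which encodes NK1.1, followed with 1001 ± 48.9 and 796 ± 90.3 CPM, also without overlap. Most of the difference between the mean sums was in Gzma. Of the 11 markers, 4 had a positive and 7 a negative log2 fold change. All deficient libraries were lower in 2 and higher in 1, beside 6.33% and 6.03% of all genes tested. The 1 higher was Cd244a, at 231 ± 17.9 and 294 ± 21.1 CPM.

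T cell markers summed to 17.2 to 24.7 CPM in wildtype and 91.7 to 147 CPM in deficient libraries. The subunit genes of the T cell receptor complex Cd3g and Cd3d were those of smallest p. Cd3g had 5.69, 4.62 and 8.34 CPM in wildtype and 67.2, 54.8 and 68.2 CPM in deficient libraries (edgeR log2 fold change 3.35, SE 0.48, adjusted p = 0.131). Cd3d had 4.94, 6.76 and 8.65 against 24.1, 56.6 and 67.1 CPM, so that neither gene overlapped between the genotypes. Trac, the constant region of the T cell receptor alpha chain, had 0, 5.05 and 1.73 against 0.14, 9.46 and 11.3 CPM, with overlap. Cd4 (57 counts) and Cd8b1 (37 counts) were found in wildtype 1 alone, and Cd3e, Cd6, Cd8a and Themis had at most 3 counts in any library.

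B cell markers summed to 14.3 to 20.1 CPM in wildtype and 11.3 to 55.9 CPM in deficient libraries. The complement receptor gene Cr2 made up most of the highest sum, with 0, 8.80 and 8.49 CPM in wildtype and 42.5, 9.63 and 9.96 CPM in deficient libraries, without overlap (log2 fold change 1.84, SE 1.27). Cd79a, a subunit of the B cell receptor, had 4.13 ± 3.31 and 2.72 ± 3.37 CPM, and Pax5 was at 0 throughout. Myeloid markers summed to 422 to 505 and 401 to 469 CPM, of which Itgax, which NK cells also express, gave 463 ± 44.3 and 406 ± 30.3. Cd68, a lysosomal protein of macrophages, had counts of 15, 105 and 7 in wildtype and 211, 129 and 142 in deficient libraries, 4.87 ± 5.57 and 23.7 ± 5.86 CPM without overlap (edgeR log2 fold change 2.27, SE 0.90, unadjusted p = 0.0303, adjusted p = 0.914), and Cd14 was at 0. Plasmacytoid dendritic cell markers summed to 188 to 332 and 236 to 401 CPM, with Siglech and Spib at no more than 3 counts. Those of smallest p were the inhibitory receptor gene Lair1, at 26.4 ± 5.28 and 49.9 ± 26.5 CPM, and Cox6a2, at 1.34 ± 0.120 and 6.38 ± 4.90 CPM. Tcf4, at 58.9 ± 26.4 and 34.1 ± 7.99 CPM, had the only negative log2 fold change of the 4 tested (-0.79, SE 0.45). Irf8, at 177 ± 50.6 and 202 ± 64.2 CPM, and Tcf4 gave most of the plasmacytoid sums. ILC1 markers summed to 33.6 to 49.9 and 54.3 to 64.7 CPM, with the chemokine receptor gene Cxcr6 at 7.43 ± 7.35 and 1.34 ± 1.11 CPM and the interleukin 7 receptor gene Il7r at 22.3 ± 9.79 and 36.4 ± 9.20 CPM. None of the tested markers of these lists passed, and the part of any of these cells in the Ly49 values was not tested.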

How the data were processed

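RNA from 6 libraries, 3 wildtype and 3 Rroid-deficient by their titles, was sequenced as single reads. The submitters' processing notes list HTSeq 0.6.1, TopHat2 2.1.0, DESeq2 and Trimmomatic 0.33, with mm9 and NCBIM37 as builds, settings and strand use not given in the sources used here. Raw counts were deposited per Ensembl gene, 1 file a library. The 5 closing rows that name no gene held 80.0% to 84.4% of all counts in the files, and the row for alignments that were not unique 24.5% to 27.3%. Whether a read with several alignments was counted once there is not stated. The largest closing row, for reads in no counted feature, held 20746026 to 27977456, beside 5823626 to 9216430 reads assigned to genes. All closing rows were left out. Reads aligned to several places stand in the closing rows, under no gene, so Klra values could understate levels where paralogs share sequence. How reads with a near match in a paralog were aligned is not stated.

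Symbols, lengths and transcripts came from GENCODE M21 (GRCm38). The main test was edgeR 4.0.16 in R 4.3.3 with TMM, filterByExpr and a quasi-likelihood fit on genotype, on all genes, with each SE derived from the F statistic. It was run on simulated counts with larger fold changes than those of the Ly49 genes and less spread than these libraries. That run does not show its power for the Ly49 genes. Alternatives were RLE size factors, no filter, a stricter filter, DESeq2 1.42.0, limma-voom 3.58.1, libraries left out and the replicate number as a block. Coding sequences were aligned with Biopython 1.88. Every member was named, and of other lists the passing genes or the 2 of smallest p, with Id2 and Tyrobp always. Tcf7, H2-K1, H2-D1, Cd244a, Trac, Cd4, Cd8b1, Tcf4, Irf8 and the markers given as near 0 were named after their values were seen. One B cell marker is not reported here. Members and lists were chosen with earlier results of these data known.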

Additional observations from a re-analysis of the deposited data

How the results depend on the processing

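No Ly49 member passed under any of the 14 alternatives. All genes passing numbered 2 in the main analysis, 98 with edgeR without a filter, 65 with DESeq2 on the filtered genes, 88 with DESeq2 without the filter (added after seeing the data), 1 with limma-voom, 0 without both libraries numbered 1 and 0 whichever 1 library was left out; the cause was not tested. Klra1 (0.13), Klra3 (-0.0034) and Klra7 (0.14) turned direction without both libraries numbered 1, and Klra3 without deficient 1: with any 1 library left out it ranged from -0.054 to 0.33. Klra4, Klra5, Klra6, Klra8, Klra9 and Klra10 kept their direction in all 14 fits, Klra4 between 0.041 and 0.37, Klra5 between 0.22 and 2.19, Klra9 between -0.81 and -0.54 and Klra6 between 0.65 and 1.18. The activating share differed by 4.87 points per kb of exon. No member shared over 50% of its 100-base windows, so the planned run without such members was not needed. With the replicate number as a block, 0 genes passed; the same numbers correlated at 0.01, -0.02 and 0.04 in their deviations over 11724 genes, so the numbers were not taken to pair the libraries. At the depth of these libraries a change in Klra5 or Klra17 of several fold could go undetected.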

Other observations

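The level of Klra6 relative to Klra9 within a library was examined after their values were seen. The ratio of their CPM was 0.495, 0.304 and 0.248 in wildtype libraries 1 to 3 and 0.814, 1.04 and 1.22 in deficient libraries 1 to 3. The ratio of Klra8 to Klra9, the closest activating and inhibitory pair in coding sequence, was 2.37, 1.53 and 1.98 in wildtype and 3.56, 3.37 and 4.52 in deficient libraries. Klra8 shared 10.7% of its 50-base windows with Klra9, and Klra9 shared 9.48% of its own with Klra8. The division of reads between these genes is therefore uncertain. The libraries of the genotypes did not overlap in either ratio. That was fixed by the single genes, since Klra6 and Klra8 were higher and Klra9 lower in all deficient libraries. The ratios therefore add no separate result, and no test was made because the genes were picked for their values.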
